A study of Mus musculus with 22 samples.

Results

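The 9 genes described here encode amino acid transporters, or transporter subunits, of the kidney proximal tubule: Slc6a19, Slc6a18, Slc1a1, Slc7a9, Slc3a1, Slc7a7, Slc7a8, Slc3a2 and Slc43a2. They were picked by symbol from a table of 16556 genes, and all 9 passed the filter on low counts. Kidney cortex RNA from male C57BL/6J animals was sequenced near transcript 3′ ends in 22 libraries. The mice carried a deletion of Crat, which encodes the mitochondrial enzyme carnitine acetyltransferase, made in proximal tubular cells with a Ggt-driven Cre recombinase (Pt-CrAT), or were floxed counterparts without Cre (fl/fl). The groups were 12-month-old mice with "LFD" in the title (3 Pt-CrAT and 3 fl/fl), 15-month-old mice with chow in the title (3 and 3) and 24-month-old mice with chow in the title (5 and 5). The labels do not spell LFD out, and it changes together with age, so levels at 12 months were not tested against the older libraries. Only the genotype difference was tested among the 3 settings. A title such as CrAT12MLFD345 names a Pt-CrAT library, and one such as Wt12MLFD326 an fl/fl library.

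Nearly all filtered amino acid is taken back by the proximal tubule, through sodium-coupled carriers and exchangers in the brush border and through exchangers and facilitated carriers in the basolateral membrane. Several of these proteins work as heteromers, in which a catalytic light chain of the Slc7 family needs a heavy chain of the Slc3 family to reach the membrane. Loss of single members in people causes inherited aminoacidurias, among them Hartnup disorder (SLC6A19), cystinuria (SLC3A1 and SLC7A9), lysinuric protein intolerance (SLC7A7) and dicarboxylic aminoaciduria (SLC1A1).

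Levels are CPM, a gene's tags relative to the library total after TMM scaling. A 3′ library yields about 1 tag per transcript, so CPM was not divided by gene length and levels of different genes were compared as they stand. Library totals lay between 12175804 and 17447367 counts, except for CrAT12MLFD345 with 53157575. The Crat difference between genotypes did not pass the test in any setting, and by value it ran against the labels at 15 months. At 12 months it stood at 42.4, 81.1 and 64.2 CPM in Pt-CrAT libraries, against 54.0, 84.6 and 98.0 CPM in fl/fl libraries. At 15 months it stood at 63.1, 72.6 and 71.8 CPM in the libraries labelled Pt-CrAT, against 41.5, 34.3 and 60.02 CPM in those labelled fl/fl, so the 15-month groups are called by their labels throughout. At 24 months the 5 Pt-CrAT libraries (28.4 to 38.9 CPM) all lay below the 5 fl/fl libraries (43.5 to 112 CPM). The fitted log2 fold changes of Crat were -0.33, 0.61 and -1.04 at 12, 15 and 24 months (edgeR adjusted p = 0.410, 0.581 and 0.177). At 24 months the unadjusted edgeR p was 7.07e-05. The genotype difference of Crat varied among the 3 settings (edgeR adjusted p = 0.0319). From 15 to 24 months Crat fell in Pt-CrAT by label (log2 fold change -0.93, edgeR adjusted p = 0.0165). In fl/fl by label it was higher by value (0.72, edgeR adjusted p = 0.115). Which part of Crat was removed is not stated, so its 3′ tags may lie outside that part. All 14 markers of the early proximal tubule (segments S1 and S2) were present in every library, with a summed level of 7351 to 16791 CPM.

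All 9 transporter genes had tags in every library, from 373 counts upward, and their levels spanned more than an order of magnitude (the plot of levels by library). In the brush border, Slc6a18 (ENSMUSG00000021612, GRCm38 chromosome 13, 73661752 to 73678023, minus strand), a sodium-dependent carrier of glycine and other neutral amino acids in mouse kidney, had the highest level at 1186 ± 408 CPM (SD, n = 22). Slc6a19 (ENSMUSG00000021565, chromosome 13, 73679745 to 73704865, minus strand), the main brush border carrier of neutral amino acids, followed at 379 ± 97.0 CPM. The 2 genes are neighbours, with 1721 bases between them. Slc1a1 (ENSMUSG00000024935, chromosome 19, 28835049 to 28913960, plus strand), the uptake carrier of glutamate and aspartate, stood at 148 ± 16.7 CPM.

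The cystine and dibasic amino acid exchanger of the brush border is made of a light chain and a heavy chain. Its heavy chain gene Slc3a1 (ENSMUSG00000024131, chromosome 17, 85028376 to 85064236, plus strand) stood at 221 ± 35.8 CPM, and its light chain gene Slc7a9 (ENSMUSG00000030492, chromosome 7, 35448796 to 35466036, plus strand) at 80.0 ± 17.4 CPM (SD, n = 22 each). At the basolateral membrane, Slc7a8 (ENSMUSG00000022180, chromosome 14, 54722209 to 54781946, minus strand), the light chain of an exchanger of neutral amino acids, stood at 128 ± 70.2 CPM. Slc7a7 (ENSMUSG00000000958, chromosome 14, 54369442 to 54417780, minus strand), the light chain of the exchanger that releases cationic amino acids, stood at 98.9 ± 18.8 CPM. Slc3a2 (ENSMUSG00000010095, chromosome 19, 8706882 to 8723369, minus strand), the heavy chain that both of them need, was the lowest of the 9 at 75.3 ± 16.9 CPM. Slc43a2 (ENSMUSG00000038178, chromosome 11, 75531694 to 75577575, plus strand), a facilitated carrier of large neutral amino acids, stood at 145.5 ± 38.7 CPM.

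The order of the 3 most abundant genes (Slc6a18, Slc6a19, Slc3a1) was the same in 22 of 22 libraries, and Slc3a1 was above Slc1a1 in 22 of 22. Below that the order was loose: Slc1a1 exceeded Slc43a2 in 14 libraries, Slc43a2 exceeded Slc7a8 in 14, Slc7a8 exceeded Slc7a7 in 15, Slc7a7 exceeded Slc7a9 in 19, and Slc7a9 exceeded Slc3a2 in 16 of 22. Slc7a8 varied by far the most, from 34.1 CPM in CrAT12MLFD328 to 341 CPM in Wt12MLFD326, a 10.02-fold range. Its SD within groups was 0.57 on the log2 scale, above that of 96.9% of the 9949 genes with a mean of at least 5 CPM. Slc7a7 (SD 0.13, above 5.05% of these genes) and Slc1a1 (SD 0.14, above 8.68%) were among the steadiest. Among the 9, 3 overlap a gene on the opposite strand that is also in the count table, Slc7a7 with Oxa1l, Slc3a1 with Prepl and Slc1a1 with 4430402I18Rik. Each of these overlaps covers the 3′ end of the transporter gene, near which these libraries were sequenced. No source used here gives the strand setting of the counting, so reads from these overlaps cannot be assigned with certainty.

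**Figure D1:**
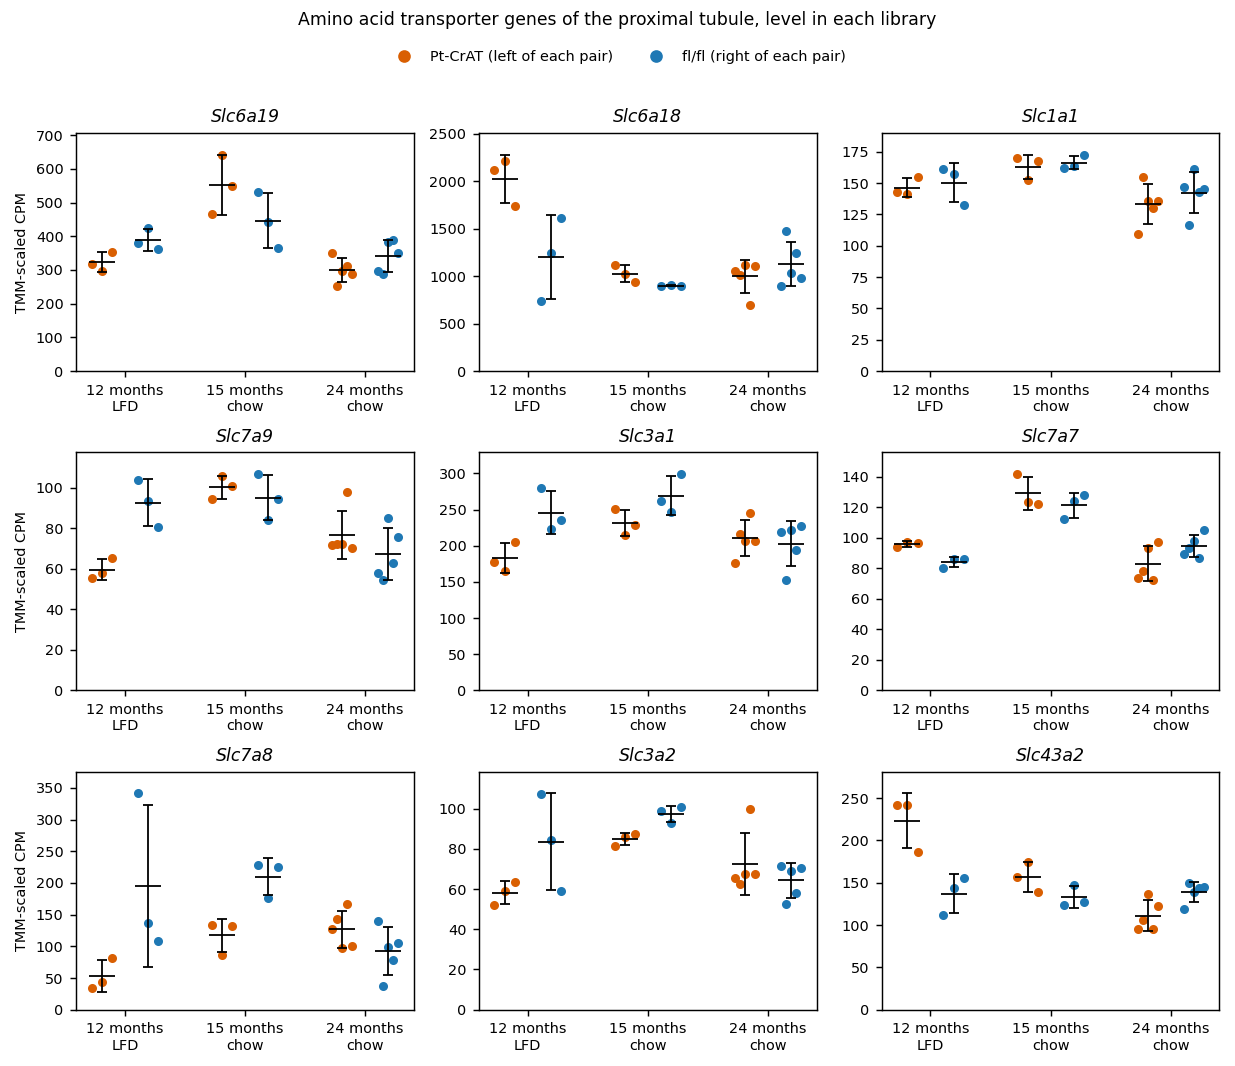
TMM-scaled CPM (vertical axes, from 0) of the 9 genes in each of the 22 libraries, by age and title word (horizontal axes), with Pt-CrAT left of fl/fl; points are libraries, bars the group mean ± SD. By group mean, Slc6a18 and Slc43a2 were highest and Slc7a8 lowest in Pt-CrAT at 12 months, and Slc6a19 and Slc7a7 were lower at 24 than at 15 months in Pt-CrAT.

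Start site sequences are shown for the 2 heavy chain genes and for a light chain partner of each (Slc7a9 for Slc3a1, Slc7a8 for Slc3a2), pairs whose correlations are given below. Each is the coding strand from 150 bases before to 10 bases after an annotated transcription start, from RefSeq on GRCm38.p6: chr17:85028197-85028356 on the plus strand for Slc3a1, chr7:35448942-35449101 on the plus strand for Slc7a9 (the first of its 2 annotated starts), chr14:54781877-54782036 on the minus strand for Slc7a8 and chr19:8713888-8714047 on the minus strand for Slc3a2. Capitals mark matches on either strand to a half-site of HNF1 (GTTAAT), a core of the HNF4 site (CAAAGTCC), the TATA box (TATAAA) or a core of the composite site bound by ATF4 (TGATGNAA).
Slc3a1: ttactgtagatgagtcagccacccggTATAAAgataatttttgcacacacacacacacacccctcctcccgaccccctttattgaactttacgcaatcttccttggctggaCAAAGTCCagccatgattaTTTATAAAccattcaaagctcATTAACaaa
Slc7a9: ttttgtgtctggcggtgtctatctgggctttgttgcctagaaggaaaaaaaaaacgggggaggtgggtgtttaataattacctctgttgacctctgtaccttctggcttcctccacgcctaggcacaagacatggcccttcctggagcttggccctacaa
Slc7a8: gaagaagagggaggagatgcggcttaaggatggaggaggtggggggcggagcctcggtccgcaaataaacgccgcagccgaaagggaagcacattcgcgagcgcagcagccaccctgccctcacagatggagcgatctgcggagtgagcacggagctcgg
Slc3a2: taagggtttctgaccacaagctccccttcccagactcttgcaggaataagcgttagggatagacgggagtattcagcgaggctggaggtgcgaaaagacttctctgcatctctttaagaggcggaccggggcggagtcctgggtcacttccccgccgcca

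Only the Slc3a1 stretch of these 4 holds a match, and it holds 5: an HNF1 half-site read on the minus strand, an HNF4 core, and 3 TATA boxes, of which an overlapping pair lies on opposite strands in the run TTTATAAA. RefSeq windows from 250 bases before to 50 bases after the start were searched for 8 of the 9 genes (14 windows), and 10 of these 14 hold none of the 4 motifs. Slc7a7 windows hold the remaining matches, to the ATF4 core and to the HNF1 half-site. Among 32851 windows of all genes, 7.10% hold the HNF1 half-site, 1.42% the HNF4 core, 13.6% the TATA box and 3.97% the ATF4 core. A match is a description of letters, and no match says only that these letters are not in this window. Slc6a18 was not among the windows used.

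The first comparison asked how Pt-CrAT kidneys differed from fl/fl kidneys at 12 months. Of the 9 genes, Slc6a18 and Slc43a2 rose and Slc7a8 and Slc7a9 fell in Pt-CrAT libraries, and 5 did not pass the test. These 4 of 9 are read against a background in which 16.4% of the 15064 genes tested passed, 8.41% higher and 7.95% lower. The median log2 fold change of the 9 genes was -0.27, against 0.002 for all genes tested. In bulk RNA, fewer cells of a type and less RNA per cell cannot be told apart.

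In the brush border at 12 months, Slc6a18 stood at 2122.5, 2216 and 1735 CPM in Pt-CrAT libraries, against 737, 1247 and 1618 CPM in fl/fl libraries. The groups did not overlap, but the highest fl/fl library came close to the lowest Pt-CrAT library, and Wt12MLFD326 stood well below the rest. The edgeR quasi-likelihood test gave a log2 fold change of 0.75 (SE 0.22, Benjamini-Hochberg adjusted p = 0.0289). Its neighbour Slc6a19 went the other way by value, with 316, 297 and 355 CPM in Pt-CrAT, against 379, 425 and 362 CPM in fl/fl. All 3 Pt-CrAT libraries lay below all 3 fl/fl libraries, yet the log2 fold change of -0.27 (SE 0.16) had an edgeR adjusted p of 0.252. Slc6a18 made up 63.8 ± 4.21% of the summed CPM of the 9 genes in Pt-CrAT and 45.7 ± 12.7% in fl/fl (SD, n = 3 each). Slc1a1 overlapped between the groups, at 141 to 155 CPM in Pt-CrAT and 133 to 161 CPM in fl/fl.

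Both subunits of the cystine exchanger were at lower values in Pt-CrAT at 12 months, and the light chain passed the edgeR test. Slc7a9 stood at 55.5, 57.7 and 65.2 CPM in Pt-CrAT libraries, against 104, 93.4 and 80.7 CPM in fl/fl libraries. The groups were well apart, with a log2 fold change of -0.64 (SE 0.16, edgeR adjusted p = 0.0166). Slc3a1 stood at 178, 166 and 205.3 CPM in Pt-CrAT, against 280, 223 and 235 CPM in fl/fl. These groups did not overlap either, but the log2 fold change of -0.43 (SE 0.15) did not pass in edgeR (adjusted p = 0.0582). It did with DESeq2 (adjusted p = 0.0351) and with limma-voom, which was run with library weights (adjusted p = 0.0141). The ratio of Slc7a9 to Slc3a1 was 0.326 ± 0.0192 in Pt-CrAT and 0.378 ± 0.0388 in fl/fl (SD, n = 3 each).

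At the basolateral membrane, Slc7a8 showed the largest difference of the 9 genes at 12 months. It stood at 34.1, 43.0 and 81.5 CPM in Pt-CrAT libraries, against 341, 136.2 and 108 CPM in fl/fl libraries. The groups did not overlap, and Wt12MLFD326 was far above every other library of the setting. The fitted log2 fold change was -1.87 (SE 0.44, edgeR adjusted p = 0.0130), a level 0.273 times that of fl/fl. Slc43a2 moved the opposite way, with 242, 242 and 186 CPM in Pt-CrAT, against 111, 144 and 155 CPM in fl/fl. Every Pt-CrAT library was above every fl/fl library, with a log2 fold change of 0.70 (SE 0.16, edgeR adjusted p = 0.00980). The ratio of Slc7a8 to Slc43a2 was 0.252 ± 0.162 in Pt-CrAT and 1.57 ± 1.30 in fl/fl (SD, n = 3 each).

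The other basolateral subunits did not pass the edgeR test at 12 months. Slc7a7 was between 93.7 and 97.3 CPM in Pt-CrAT and between 79.9 and 85.8 CPM in fl/fl, so the groups did not overlap, with a log2 fold change of 0.19 (edgeR adjusted p = 0.297). The heavy chain Slc3a2 stood at 52.0, 58.9 and 63.7 CPM in Pt-CrAT, against 107, 84.6 and 59.2 CPM in fl/fl. Its groups overlapped through Wt12MLFD368, and the log2 fold change of -0.52 had an edgeR adjusted p of 0.0558, while DESeq2 (adjusted p = 0.0414) and limma-voom (0.0123) called it. In all, 6 of the 9 passed with DESeq2 and 7 with limma-voom. Both of these fits also called a larger share of all genes than edgeR did. With limma-voom that share was 25.6%, against 16.4% with edgeR. By library, 3 genes lay wholly above and 4 wholly below fl/fl, in a setting where 30.1% of all genes tested had groups that did not overlap.

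The 4 calls at 12 months depended on which libraries were fitted. None of the 9 genes passed when Wt12MLFD326, CrAT12MLFD328 or CrAT12MLFD337 was left out, or when only the 6 libraries of the setting were fitted. The sign of each of the 4 differences was the same in all 13 alternative fits, and with only the 6 libraries the log2 fold changes were 0.74 for Slc6a18, 0.69 for Slc43a2, -1.90 for Slc7a8 and -0.66 for Slc7a9. Without CrAT12MLFD328 they were 0.73, 0.66, -1.62 and -0.57, and without CrAT12MLFD337 0.69, 0.65, -1.73 and -0.60, so the call was lost there with differences of similar size. Wt12MLFD326 was the fl/fl library with the lowest Slc6a18 and Slc43a2 and the highest Slc7a8 and Slc7a9 of its group. Without it the log2 fold changes were 0.50, 0.58, -1.20 and -0.55, with edgeR adjusted p of 0.166, 0.0600, 0.110 and 0.0822. Fat cell genes also differed in this setting. Of 6 adipocyte markers tested, 5 were higher in Pt-CrAT, with a summed level of 58.5 to 232 CPM in Pt-CrAT and 29.5 to 70.0 CPM in fl/fl. Adipoq, the adipocyte hormone adiponectin, had a log2 fold change of 5.01 (edgeR adjusted p = 0.00927), and Fabp4, the marker that did not pass, one of -0.37. Of these markers Retn was at 0 in 2 of the 22 libraries and Cidec in 1. Of 14 early proximal tubule markers, 3 were lower and none higher, with a summed level of 15054 to 16791 CPM in Pt-CrAT and 13219 to 16236 CPM in fl/fl. The 8 markers of the late segment (S3) had a median log2 fold change of -0.76 with none called, and a summed level of 633 to 921 CPM in Pt-CrAT and 916 to 1248 CPM in fl/fl. Also called lower were 2 of 5 thick ascending limb markers, 2 of 7 collecting duct markers, 1 of 5 endothelial, 1 of 5 stromal and 1 of 4 tubular injury markers. Over all genes tested 7.95% were called lower. The part of these markers in the transporter differences was not tested.

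**Figure D2:**
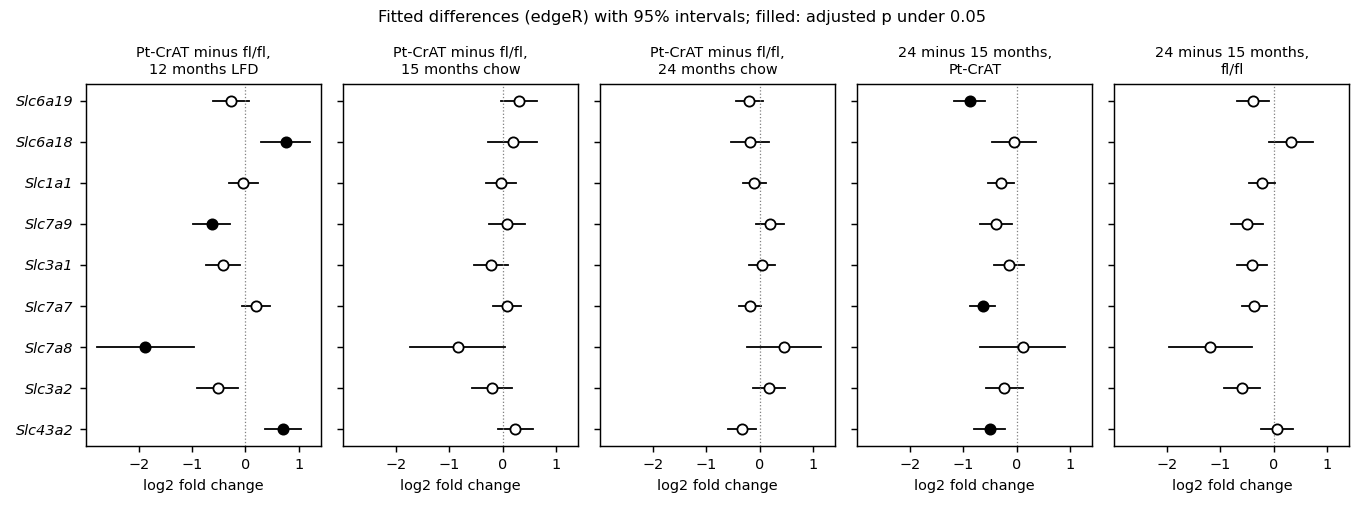
Fitted log2 fold changes (horizontal axes) of the 9 genes (rows) with 95% intervals in 5 comparisons, from the edgeR model of 22 libraries; filled points passed an adjusted p of 0.05. Slc6a18, Slc7a9, Slc7a8 and Slc43a2 passed at 12 months, none at 15 or 24 months, and Slc6a19, Slc7a7 and Slc43a2 passed between 15 and 24 months in Pt-CrAT.

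At 15 and at 24 months none of the 9 genes passed, nor did any other gene, 0.0% of the genes tested being called by edgeR at either age. None of the 9 passed with DESeq2 or limma-voom either. At 15 months 1249 genes, and at 24 months 1409 genes, had an unadjusted p under 0.05, among them 0 and 1 of the 9. At 15 months the largest difference by size was again in Slc7a8, with 133, 86.4 and 132 CPM in the libraries labelled Pt-CrAT, against 229, 177 and 224.5 CPM in those labelled fl/fl. The groups did not overlap. The log2 fold change was -0.84 (95% interval -1.73 to 0.05, edgeR adjusted p = 0.581). Slc3a2 also lay wholly lower (81.6 to 87.5 CPM, against 93.1 to 101 CPM) and Slc6a18 wholly higher (942 to 1121 CPM, against 896 to 906 CPM) in the libraries labelled Pt-CrAT. These 3 of 9 compare with 24.3% of all genes tested whose 15-month groups did not overlap.

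At 24 months the groups of every one of the 9 genes overlapped, as did those of all but 1.53% of the genes tested. Slc43a2 stood at 94.7, 105, 137, 95.4 and 122 CPM in Pt-CrAT libraries, against 119, 149, 139, 143 and 145.1 CPM in fl/fl libraries. In Pt-CrAT 3 libraries lay below all fl/fl libraries and the other two within their range. Its log2 fold change of -0.33 (95% interval -0.58 to -0.07) had an unadjusted p of 0.0143 and an edgeR adjusted p of 0.468. Slc7a8 stood at 128, 143, 97.1, 166 and 100.1 CPM in Pt-CrAT, against 141, 37.1, 99.4, 79.0 and 105 CPM in fl/fl. The ranges overlapped widely, Wt24Mchow154 being the lowest, with a log2 fold change of 0.46 (95% interval -0.23 to 1.15, edgeR adjusted p = 0.641). For the other 7 genes at 24 months the fitted log2 fold changes were between -0.19 and 0.19.

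The test that the genotype difference is the same in all 3 settings was passed by Slc43a2 (edgeR adjusted p = 0.0200), Slc7a8 (0.0401) and Slc7a9 (0.0432), 3 of 9 against 5.07% of all genes tested. Of the 9 genes, 0 passed without CrAT12MLFD328 and 0 without CrAT12MLFD337, and 1 passed without Wt12MLFD326, Wt15Mchow225, Wt15Mchow227, Wt24Mchow154, Wt24Mchow165, Wt24Mchow168, CrAT15Mchow185, CrAT15Mchow204, CrAT24Mchow124 or CrAT24Mchow136. The test contains the 15-month libraries, in which Crat ran against the labels.

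Next, levels were compared between 24 and 15 months within a genotype. The labels name no batch or cohort, so age and batch cannot be told apart, and the 2 age comparisons share their libraries with the genotype comparisons. In Pt-CrAT, Slc6a19, Slc7a7 and Slc43a2 were lower at 24 months than in the 15-month libraries labelled Pt-CrAT, none of the 9 was higher, and 6 did not pass. Over all genes tested 11.3% passed, 5.61% higher and 5.71% lower. In fl/fl, 0 of the 9 passed, where 1.3% of the genes tested did (0.823% higher and 0.478% lower). An unadjusted edgeR p under 0.05 was found for 6 of the 9, and for 3266 of the 15064 genes tested. With DESeq2 4 of the 9 passed, where 4.84% of all genes did. With limma-voom 5 of the 9 passed, where 13.4% did.

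Slc6a19 stood at 350, 254, 296, 312 and 287 CPM in Pt-CrAT at 24 months, against 465.9, 642 and 548 CPM in the libraries labelled Pt-CrAT at 15 months. All 5 libraries of 24 months lay far below all 3 of 15 months. The log2 fold change was -0.88 (SE 0.14, edgeR adjusted p = 0.00128), a level 0.543 times that at 15 months. In fl/fl it stood at 298, 289, 382, 390 and 350 CPM at 24 months, against 530, 441 and 366 CPM in the libraries labelled fl/fl at 15 months. These groups overlapped, with a log2 fold change of -0.38 (SE 0.14, edgeR adjusted p = 0.138). The difference between the genotypes in this change was -0.50 (SE 0.21) and did not pass (edgeR adjusted p = 0.299).

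Slc7a7 stood at 73.5, 78.4, 93.5, 72.4 and 97.2 CPM in Pt-CrAT at 24 months, against 142, 123.1 and 122 CPM in the libraries labelled Pt-CrAT at 15 months. The groups were clearly apart, with a log2 fold change of -0.64 (SE 0.11, edgeR adjusted p = 0.00190). In fl/fl it stood at 89.6, 92.9, 97.9, 86.5 and 105 CPM at 24 months, against 112, 123.9 and 128 CPM in the libraries labelled fl/fl at 15 months. These groups did not overlap either, with a log2 fold change of -0.36 (SE 0.11, edgeR adjusted p = 0.0876). The calls of Slc6a19 and Slc7a7 in Pt-CrAT held in all 15 alternative fits, with log2 fold changes from -0.99 to -0.75 and from -0.68 to -0.53. None of these fits addressed the overlap of Slc7a7 with Oxa1l.

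Slc43a2 stood at 94.7, 105, 137, 95.4 and 122 CPM in Pt-CrAT at 24 months, against 157, 175 and 139 CPM in the libraries labelled Pt-CrAT at 15 months. The highest 24-month library was just under the lowest 15-month one. The log2 fold change was -0.50 (SE 0.14, edgeR adjusted p = 0.0241), and the call held in 7 of 15 alternative fits. It was lost without CrAT15Mchow183, CrAT15Mchow185, CrAT15Mchow204, CrAT24Mchow123, CrAT24Mchow124 or CrAT24Mchow136, without CrAT24Mchow123 and CrAT24Mchow136 together, and with the end GC covariate described below, with log2 fold changes of -0.57 to -0.37 and adjusted p of 0.0502 to 0.178. In fl/fl the log2 fold change of Slc43a2 was 0.07 (edgeR adjusted p = 0.816), and the difference between the genotypes of -0.57 (SE 0.20) did not pass (edgeR adjusted p = 0.290).

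In fl/fl, 7 of the 9 fitted changes were negative and the median was -0.38, against 0.021 over all genes tested. In Pt-CrAT, 8 of 9 were negative and the median was -0.29, against 0.045 over all genes. The largest fitted change in fl/fl was in Slc7a8, with 141, 37.1, 99.4, 79.0 and 105 CPM at 24 months, against 229, 177 and 224.5 CPM in the libraries labelled fl/fl at 15 months. The groups did not overlap, with a log2 fold change of -1.19 (SE 0.37, edgeR adjusted p = 0.0947). In Pt-CrAT its groups overlapped and the log2 fold change was 0.11 (SE 0.38, edgeR adjusted p = 0.878). Slc3a2 in fl/fl was 52.4 to 71.7 CPM at 24 months, against 93.1 to 101 CPM in the libraries labelled fl/fl at 15 months, with a log2 fold change of -0.60 (edgeR adjusted p = 0.0624). Both cystine exchanger genes fitted lower in fl/fl, at -0.50 for Slc7a9 and -0.41 for Slc3a1 (edgeR adjusted p = 0.0710 and 0.103). The 24-month libraries lay wholly below the 15-month ones for 5 of 9 genes in fl/fl, against 8.26% of all genes tested that did so and 17.0% that did so in either direction. In Pt-CrAT 3 of 9 did, against 11.3% and 21.8%. The change between ages was also tested for a difference between the genotypes, which 0 of the 9 and 0.0% of the genes tested passed, the smallest edgeR adjusted p among the 9 being 0.290. An unadjusted p under 0.05 was found for 3 of the 9 there (Slc43a2, Slc6a19 and Slc7a8) and for 2255 genes in all.

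Markers of the tubule and of other cell types also differed between the ages. Of 14 early proximal tubule markers, 7 were lower at 24 months in Pt-CrAT, 1 in fl/fl, and none was higher in either. Their median log2 fold changes were -0.53 in Pt-CrAT and -0.47 in fl/fl. Their summed level was 7351 to 10643 CPM at 24 months and 13670 to 14072 CPM at 15 months in the libraries labelled Pt-CrAT, and 9922 to 11738 CPM at 24 months and 12817 to 14422 CPM at 15 months in those labelled fl/fl. The glucose carrier Slc5a2 had a log2 fold change of -1.24 in Pt-CrAT (edgeR adjusted p = 0.000743) and -0.80 in fl/fl (0.0311). The only positive values among these markers in Pt-CrAT were those of Lrp2 (0.17) and Cubn (0.33), and neither passed. Of 4 tubular injury markers tested, 3 were higher in Pt-CrAT at 24 months and 0 passed in fl/fl. Their median log2 fold changes were 1.63 in Pt-CrAT and 1.29 in fl/fl. For a difference between the genotypes in this change, 0 of the 4 passed. Lcn2, an injury protein of the tubule, had a log2 fold change of 3.99 in Pt-CrAT (edgeR adjusted p = 0.00128) and 2.08 in fl/fl (0.0691). Its level was low, at 0.0913 to 8.08 CPM over the 22 libraries. The summed level of the 4 was 140.1 to 232 CPM at 24 months and 103 to 116 CPM at 15 months in the libraries labelled Pt-CrAT. Of 5 stromal markers 2 were higher in Pt-CrAT at 24 months, with a summed level of 145.3 to 184.9 CPM, against 74.2 to 108 CPM in the libraries labelled Pt-CrAT at 15 months. In fl/fl 0 of the 5 passed, with a summed level of 116 to 159 CPM at 24 months, against 80.6 to 113 CPM in the libraries labelled fl/fl at 15 months. Of 4 markers of the distal convoluted tubule, 2 were lower at 24 months in Pt-CrAT and 1 in fl/fl, with medians of -0.60 and -0.79. Their summed level was 239.5 to 379 CPM at 24 months and 465 to 527 CPM at 15 months in Pt-CrAT by label, and 265 to 445 CPM at 24 months and 559 to 584 CPM at 15 months in fl/fl by label. In Pt-CrAT, 1 of 5 thick ascending limb, 1 of 7 collecting duct and 1 of 6 macrophage markers were higher at 24 months. Of 8 late proximal tubule (S3) markers, 1 was higher and 1 lower there. In fl/fl, 1 of 7 collecting duct markers was lower, and no S3, thick ascending limb or macrophage marker passed. Over all genes tested 11.3% passed in Pt-CrAT and 1.3% in fl/fl. The part of these markers in the transporter changes was not tested.

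The summed level of the 9 genes was 3166 ± 197 CPM in Pt-CrAT and 2578 ± 269 CPM in fl/fl at 12 months. It was 2562 ± 82.2 CPM in the libraries labelled Pt-CrAT and 2439 ± 71.6 CPM in those labelled fl/fl at 15 months (SD, n = 3 in each of these groups). At 24 months it was 2111 ± 117 CPM in Pt-CrAT and 2272 ± 156 CPM in fl/fl (SD, n = 5 each). The ratio of the neighbours Slc6a18 and Slc6a19 was 6.35 ± 1.32 in Pt-CrAT and 3.12 ± 1.28 in fl/fl at 12 months. It was 1.90 ± 0.439 and 2.07 ± 0.385 in the libraries labelled Pt-CrAT and fl/fl at 15 months, and 3.38 ± 0.735 in Pt-CrAT and 3.37 ± 0.989 in fl/fl at 24 months. The Slc7a8 to Slc7a7 ratio of the basolateral light chains was 0.550 ± 0.258 in Pt-CrAT and 2.37 ± 1.65 in fl/fl at 12 months, and 1.59 ± 0.546 in Pt-CrAT and 0.980 ± 0.416 in fl/fl at 24 months.

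Subunits known to need each other were compared across the 22 libraries after the mean of each group was taken from log2 CPM, in 6 pairs (the plot of partner genes). Slc7a8 and its heavy chain Slc3a2 varied together, with Pearson's r = 0.754 (permutation p = 0.00026, adjusted over the 6 pairs p = 0.00156) and Spearman's rho = 0.757 (adjusted permutation p = 0.0021). Without the 2 libraries farthest from the median, Wt12MLFD326 and Wt24Mchow154, r was 0.658 (adjusted permutation p = 0.0103). Slc7a7, which uses the same heavy chain, did not vary with it (r = -0.197, rho = -0.034, adjusted permutation p = 0.646 and 0.895). Slc7a9 and Slc3a1 had r = 0.619 (permutation p = 0.0166, adjusted p = 0.0497) and rho = 0.542 (adjusted permutation p = 0.0714). Without CrAT24Mchow136 and Wt24Mchow164 their r was 0.532 (adjusted permutation p = 0.122), and with other size factors it was 0.608 (0.0582). This call was thus close to the threshold and was lost in both alternatives.

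Slc7a13, the light chain of the late proximal tubule that also pairs with Slc3a1, had r = 0.353 with it (adjusted permutation p = 0.261) and rho = 0.512 (adjusted permutation p = 0.0714). Without CrAT24Mchow124 and CrAT24Mchow136 its r was 0.675 (adjusted permutation p = 0.0103). Tmem27 encodes collectrin, which in mouse kidney is needed to bring the Slc6 carriers to the brush border. It had r = -0.119 with Slc6a19 and r = 0.382 with Slc6a18 (adjusted permutation p = 0.646 and 0.176). Among 9948 other genes with a mean of at least 5 CPM, ordered by r with the carrier gene, the partner ranked 144 for Slc7a9, 1097 for Slc7a8, 2170 for Slc7a13, 3155 for Slc6a18, 6998 for Slc6a19 and 8306 for Slc7a7. Slc7a8 also had r = 0.799 with Slc3a1, above its r of 0.754 with its own heavy chain Slc3a2. Slc7a9 had r = 0.742 with Slc3a2, above its r of 0.619 with its own heavy chain Slc3a1. Varying together was thus not particular to the known partners. All genes of a library share its depth and composition, and no pair was compared with chance pairs.

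**Figure D3:**
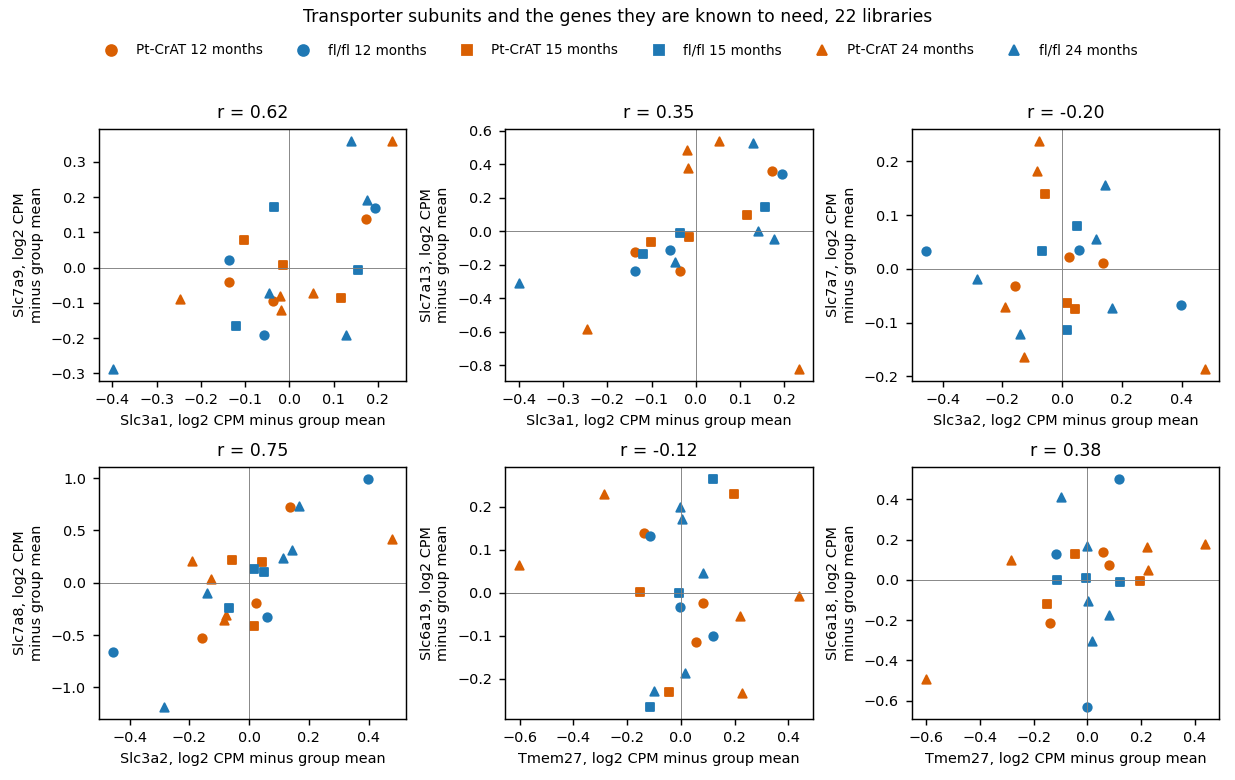
Each panel plots a transporter gene (vertical axis) against a gene it is known to need (horizontal axis), both as log2 CPM minus the group mean; points are the 22 libraries, colour is genotype and shape is age. Slc7a8 followed Slc3a2 (r = 0.75), while Slc7a7 did not follow the same heavy chain (r = -0.20).

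Across all 36 pairs of the 9 genes, 14 correlations passed after adjustment over the 36, of which 9 were positive and 5 negative (the map of correlations). The share of pairs of other genes that would pass was not determined, so this count cannot be called particular to the 9 genes. Of the 6 pairs among Slc7a8, Slc3a2, Slc3a1 and Slc7a9, all but Slc7a8 with Slc7a9 passed and were positive. Slc6a18 varied against each of these 4 genes, and Slc43a2 against Slc7a8. The strongest was between Slc6a18 and Slc3a2 (r = -0.929, rho = -0.829, adjusted permutation p = 0.00252 and 0.00619), followed by Slc6a18 and Slc7a8 (r = -0.856, rho = -0.805, adjusted permutation p = 0.00216 and 0.00603). Without CrAT24Mchow136 and Wt12MLFD326 these were -0.881 and -0.843 (adjusted permutation p = 0.021 and 0.0168). Slc7a8 and Slc43a2 had r = -0.795 (rho = -0.826, adjusted permutation p = 0.00108 and 0.0018), and Slc6a18 and Slc43a2 had r = 0.714 (rho = 0.7, adjusted permutation p = 0.00516 and 0.0084). Slc6a19 passed with none of the other 8 genes, its highest being r = 0.52 with Slc7a9 (rho = 0.526, adjusted permutation p = 0.067 and 0.0628). Of the 14, 6 also passed by rank and without the 2 libraries farthest out.

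**Figure D4:**
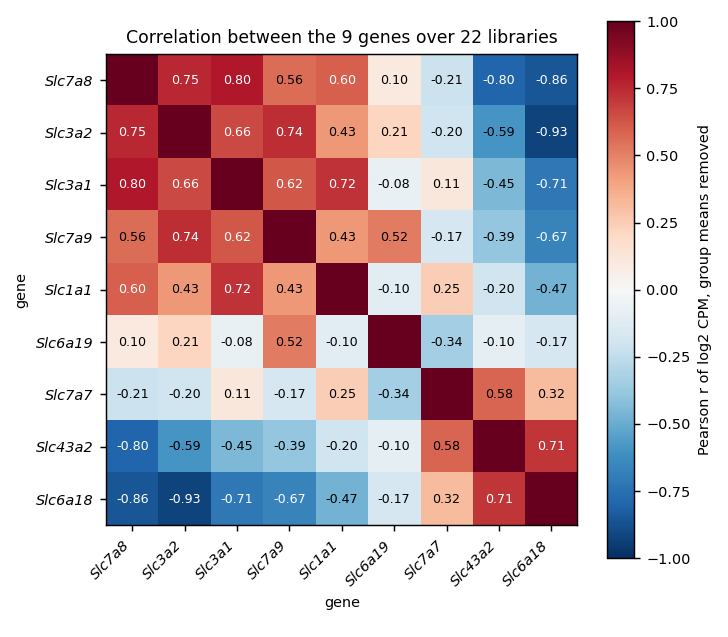
Pearson correlation (colour and number) of log2 CPM between the 9 genes over 22 libraries after removal of group means, both axes listing the genes. Slc6a18 varied against Slc7a8, Slc3a2, Slc3a1 and Slc7a9 (r of -0.93 with Slc3a2), and Slc6a19 had no r past the threshold with any of the other 8.

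A composition measure of the libraries moved with some of these genes. For each library it is the rank correlation, across 9590 genes, between a gene's log2 CPM relative to its mean over all libraries and the GC content of the last 400 bases of its longest coding transcript (end GC). Genes are not independent replicates, so it serves as a description of the library. It was 0.367 to 0.407 in the Pt-CrAT libraries and -0.235 to 0.214 in the fl/fl libraries at 12 months, where Wt12MLFD326 was the lowest. At 15 months it was -0.099 to 0.114 in the libraries labelled Pt-CrAT and -0.258 to -0.064 in those labelled fl/fl, and at 24 months -0.347 to -0.084 in Pt-CrAT and -0.328 to 0.115 in fl/fl. Thus the 3 Pt-CrAT libraries of 12 months, in which Slc6a18 and Slc43a2 were highest, also had the highest values of this measure.

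Within groups, Slc7a8 (r = -0.696, rho = -0.684, adjusted permutation p = 0.0349 and 0.0244 over the 9 genes) and Slc3a1 (r = -0.644, rho = -0.66, adjusted permutation p = 0.0349 and 0.0244) varied with end GC. Without Wt12MLFD326 and Wt24Mchow145 neither relation passed (r = -0.521 and -0.6, both with adjusted permutation p = 0.125). Slc6a18 had r = 0.686 (rho = 0.604, adjusted permutation p = 0.0515 and 0.0632), while Slc6a19 had r = 0.17 and Slc7a7 r = 0.076 (adjusted permutation p = 0.539 and 0.746). The end GC of the genes themselves was 42.3% for Slc6a18, 50.8% for Slc43a2, 41.8% for Slc7a8 and 47.8% for Slc3a1, against a median of 43.5%. With end GC as a covariate, none of the 9 genes passed at 12 months, where 8 genes passed in all, and the log2 fold changes were 0.35 for Slc6a18, 0.53 for Slc43a2, -0.87 for Slc7a8 and -0.46 for Slc7a9. The covariate comes from the same counts, and its values did not overlap between the genotypes at 12 months. At that age the fit therefore cannot tell genotype from composition. In the same fit Slc6a19 and Slc7a7 were lower at 24 months in Pt-CrAT, by -0.83 and -0.62 (edgeR adjusted p = 0.00304 and 0.00424), while Slc43a2 did not pass at -0.37 (adjusted p = 0.116). Between these ages in Pt-CrAT, end GC overlapped only through CrAT24Mchow123 (-0.084) and CrAT15Mchow183 (-0.099), so this fit can hardly tell age from composition.

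**Figure D5:**
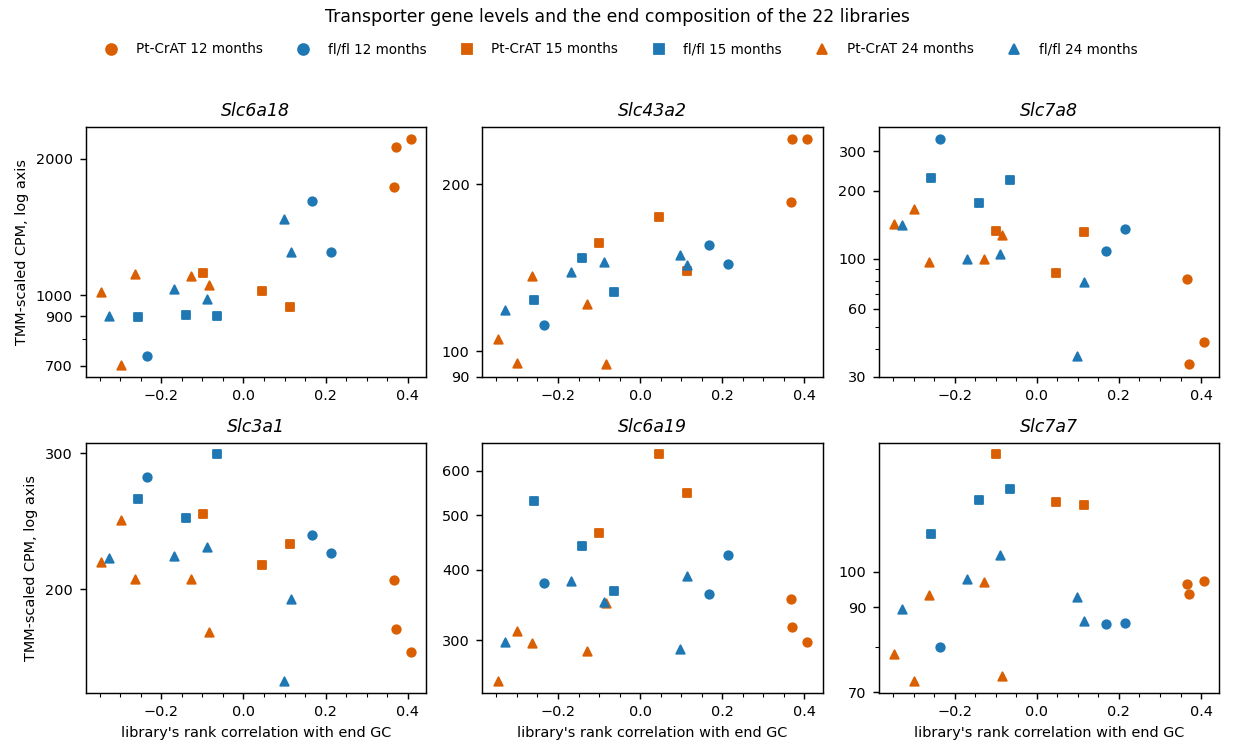
TMM-scaled CPM (vertical axes, log scale) of 6 of the genes against the end GC measure of each of the 22 libraries (horizontal axes, a rank correlation across genes); colour is genotype and shape is age. The 3 Pt-CrAT libraries of 12 months lie at the right, at 0.367 to 0.407, with the highest Slc6a18 and Slc43a2, while within groups r was 0.17 for Slc6a19 and 0.076 for Slc7a7.

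For each gene, the 3 other genes with the most similar pattern of log2 CPM over the 22 libraries were found by Pearson's r among genes with a mean of at least 5 CPM. For Slc6a18 they were Gfer (r = 0.968), Tbrg4 (0.96) and Ndufa2 (0.959), and for Slc43a2 Mrpl37 (0.962), Trappc6a (0.956) and Timm22 (0.954). For Slc7a8 they were Prr3 (0.977), Ostf1 (0.971) and Phc2 (0.969), for Slc3a2 Chtop (0.897), Cys1 (0.892) and Ctdsp2 (0.89), and for Slc3a1 Hadh (0.942), Vdac1 (0.933) and Tomm22 (0.931). For Slc6a19 they were Lipa (0.832), Slc38a4 (0.814) and Mtmr2 (0.786). For Slc7a9 they were Nox4 (0.92), Car14 (0.887) and Marc2 (0.851), and for Slc7a7 they included Gpx1 (0.851) and Tnfaip8 (0.835). For Slc1a1 they included the organic ion carrier Slc17a1 (0.884) and Phb2 (0.854). Group differences are part of these values, and they carry no test.

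Other amino acid transporter genes were taken from a list of 39, of which 32 were tested. At 12 months 4 were higher and 3 lower in Pt-CrAT, 7 of 32 where 16.4% of all genes tested passed, with a median log2 fold change of -0.11. Among these, the genes averaging 5 CPM or more were Slc7a4 (0.95, SE 0.25, edgeR adjusted p = 0.0185), Slc38a7 (0.81, SE 0.21, adjusted p = 0.0184), a lysosomal glutamine carrier, and the taurine carrier Slc6a6 (-1.12, SE 0.37, adjusted p = 0.0432). None passed at 15 or 24 months. Between 24 and 15 months, 8 were higher and 3 lower in Pt-CrAT (11.3% of all genes tested passed) and 1 was higher in fl/fl (1.3% passed). For a difference between the genotypes in this change, 0 of the 32 passed. Genes called higher in Pt-CrAT but not named below had low levels, averaging 0.706 to 4.27 CPM. In Pt-CrAT the glutamine carriers Slc38a2 (0.91, SE 0.16, edgeR adjusted p = 0.00187) and Slc38a3 (0.94, SE 0.29, adjusted p = 0.0378) were higher at 24 months, as was the cationic amino acid carrier Slc7a1 (0.95, SE 0.22, adjusted p = 0.00901). Slc7a1 was also higher in fl/fl (1.07, SE 0.22, edgeR adjusted p = 0.0212). Slc38a4 (-1.22, SE 0.26, adjusted p = 0.00561), Slc7a4 (-0.93, SE 0.22, adjusted p = 0.0110) and the glycine carrier Slc6a9 (-0.71, SE 0.18, edgeR adjusted p = 0.0145) were lower in Pt-CrAT. The genotype difference of Slc7a4 also varied among the 3 settings (edgeR adjusted p = 0.0200).

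Of 4 partner and accessory genes tested, Slc15a2, the brush border carrier of small peptides, was lower in Pt-CrAT at 12 months (log2 fold change -0.93, SE 0.26, edgeR adjusted p = 0.0220), and none passed in any other comparison. By the 15-month labels its log2 fold change was of the same size (-0.93, SE 0.26, edgeR adjusted p = 0.581), at an age where no gene passed. At 24 months it was 0.06 (edgeR adjusted p = 0.937). Tmem27 stood at 837, 1193, 1382, 672 and 1189 CPM in Pt-CrAT at 24 months, against 1441, 1704 and 1338 CPM in the libraries labelled Pt-CrAT at 15 months. CrAT24Mchow123 and CrAT24Mchow136 were the lowest, the groups overlapped, and the log2 fold change of -0.50 (SE 0.17) did not pass (edgeR adjusted p = 0.0525).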

How the data were processed

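RNA of 22 kidney cortex libraries was extracted with TRIzol and made into QuantSeq 3′ FWD libraries, per the labels' protocols. The authors deposited raw read counts for each gene, which every fit used, and a normalized signal (counts over a DESeq2 size factor), used only as a check. R 3.4.3, DESeq2 1.18.1 and GRCm38 are named in the submitters' processing notes. Aligner, counter and strand setting: not given in the sources used here. Genotype, age and the diet word of the title set the groups. Members were matched by symbol. The 9 members, the lists and the markers were chosen with earlier results of these data known.

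Counts were fitted with edgeR 4.0.16 in R 4.3.3: TMM scaling, filterByExpr (15064 genes left), the robust quasi-likelihood F test, 1 model of 22 libraries and 6 groups, 16 residual degrees of freedom and a biological coefficient of variation of 20.5%. P-values are Benjamini-Hochberg adjusted over all genes tested, with a threshold of 0.05. They measure the spread between libraries, and shared litters or days are not recorded in the labels. Tags carried no molecular identifiers, so counts may include copies of 1 molecule. Correlations were tested by two-sided permutation of libraries within groups (100000 resamples). The scripts were tested on simulated data. Coordinates and end GC come from GENCODE M21 on GRCm38, promoters from RefSeq on GRCm38.p6. Named besides the 9 are Crat, partner genes, called list genes averaging 5 CPM or more, and the 3 most similar genes of each member, of which 2 are not reported here. The markers Adipoq, Fabp4, Retn, Cidec, Slc5a2, Lrp2, Cubn and Lcn2 fall outside that rule and were chosen after their values were seen. Alternatives were DESeq2 1.42.0, limma-voom 3.58.1 with library weights, other size factors, no filter, only the libraries compared and libraries left out. Chosen after seeing the data were the end GC covariate and the fits without CrAT24Mchow123 and CrAT24Mchow136 or without Wt12MLFD326 and CrAT12MLFD328. A table of column totals was left out.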

Additional observations from a re-analysis of the deposited data

Results flagged for a closer look

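Within the groups of 5 libraries, CrAT24Mchow136 stood apart from the other 4 Pt-CrAT libraries of 24 months in 3 genes. It held the lowest Slc6a18 of the 5 at 700.47 CPM (gap to the nearest library 0.767 of the range), and the highest Slc7a9 at 97.571 CPM (0.915) and Slc3a2 at 99.623 CPM (0.862). The critical value is 0.71, 18 groups were examined, and chance marks about 5% of groups. The genotype difference varied among the 3 settings for Slc43a2 (edgeR adjusted p = 0.02003), Slc7a8 (0.04008) and Slc7a9 (0.04321), a test that includes the 15-month libraries, in which Crat ran against the labels. LFD and age change together among these settings.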

How the results depend on the processing

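No paired analysis was possible because no replicate number is shared between groups. At 12 months 16.4% of all genes tested passed in the edgeR model, against 25.6% with limma-voom, 0.00727% with only the libraries compared, 0.123% without Wt12MLFD326 and CrAT12MLFD328, 0.0531% with the end GC covariate and 0.344% to 22.8% with 1 library left out. Of the 9 genes, 7, 0, 0, 0 and 0 to 5 passed in these fits, against 4. At 15 months, against 0.0%, 0.00664% passed with limma-voom and 0.029% with only the libraries compared. At 24 months, against 0.0%, 0.0531% passed with DESeq2, 0.0199% with limma-voom and 0.0 to 0.0133% with 1 library left out. Between 24 and 15 months in Pt-CrAT, against 11.3%, 18.7% passed with limma-voom, 2.8% without CrAT24Mchow123 and CrAT24Mchow136 and 2.55% to 11.8% with 1 library left out. In fl/fl, against 1.3%, 4.84% passed with DESeq2, 13.4% with limma-voom, 2.56% with end GC and 0.0195% to 5.04% with 1 library left out. Of the 9 genes there, 4 passed with DESeq2, 5 with limma-voom, 1 with only the libraries compared, 2 with end GC and 0 to 2 with 1 library left out, against 0. For the difference between genotypes in the change between ages, against 0.0%, 0.153% passed with DESeq2 and 0.969% with limma-voom. Among the 3 settings, against 5.07%, 15.7% passed with DESeq2, 24.4% with limma-voom, 0.201% without CrAT24Mchow123 and CrAT24Mchow136, 0.013% without Wt12MLFD326 and CrAT12MLFD328, 0.0% with end GC and 0.013% to 14.3% with 1 library left out. Of the 9, 5 passed with limma-voom, 0 in the next 3 fits and 0 to 5 with 1 library left out, against 3. The cause was not tested.

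Signs of log2 fold changes turned only for genes that had not passed. With end GC these were Slc1a1 at 12 months (0.1227) and 15 months (0.0566), Slc6a18 at 15 months (-0.03666), at 24 months (0.04248), between ages in Pt-CrAT (0.2724) and between genotypes in that change (0.07914), Slc3a1 at 24 months (-0.05929), Slc7a8 between ages in Pt-CrAT (-0.5208) and Slc7a9 between genotypes in that change (-0.05385). With limma-voom they were Slc3a1 at 24 months (-0.00806), Slc6a18 between ages in Pt-CrAT (0.03096) and Slc7a9 between genotypes (-0.09627). Without CrAT24Mchow123 and CrAT24Mchow136 they were Slc6a18 (0.06299) and Slc7a8 (-0.05544) between ages in Pt-CrAT, and Slc7a9 (-0.004594) and Slc1a1 (0.005471) between genotypes. Without Wt12MLFD326 and CrAT12MLFD328 Slc1a1 at 12 months was 0.03822. With 1 library left out, the ranges that crossed 0 were -0.1092 to 0.01315 for Slc1a1 at 12 months, -0.0186 to 0.1674 for Slc7a9 and -0.06325 to 0.01038 for Slc1a1 at 15 months, -0.03476 to 0.1092 for Slc3a1 at 24 months, -0.0885 to 0.05757 for Slc6a18 and -0.05813 to 0.2198 for Slc7a8 between ages in Pt-CrAT, and -0.001011 to 0.2319 for Slc7a9 between genotypes.

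With group means kept, r was 0.319 for Slc7a7 with Slc3a2 and 0.257 for Slc6a19 with Tmem27, both of opposite sign, and 0.509 for Slc6a18 with Tmem27 (adjusted permutation p = 0.0325). With other size factors Slc7a9 and Slc3a1 had r = 0.608 (adjusted permutation p = 0.0582), and without the 2 libraries farthest out 0.532 (0.122), where Slc7a13 and Slc3a1 had 0.675 (0.0103). All 9 genes had at least 373 counts in every library.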
